A study of Mus musculus with 8 samples.

Results

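The miR-10 and miR-196 families are microRNAs (miRs) whose genes lie inside the murine Hox clusters next to the Hox genes themselves. Every feature named mmu-miR-10a, miR-10b, miR-196a or miR-196b was taken, with either arm of the precursor, which gave 9 of the 1079 murine miRs on the array. The 4 arms named 5p, mmu-miR-10a-5p, mmu-miR-10b-5p, mmu-miR-196a-5p and mmu-miR-196b-5p, were detected on all 8 arrays and could be compared. The 5 arms named 3p were detected on none.

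Callus is the repair tissue that forms around a broken bone. It was harvested 7 days after osteotomy of the femur in CD-1 mice aged 9 to 14 weeks. In the Union group (4 mice, P17 to P20) the gap measured 0.25 mm, and in the Non-union group (4 mice, P13 to P16) it measured 1.8 mm and the periosteum had been stripped for 2 mm on either side, so that the effects of gap and stripping cannot be told apart. Every femur carried an intramedullary pin and a clip, and the group names stand for the outcome that each gap is known to lead to later on. Total RNA of each mouse, labelled with Cy3, was measured on an array of its own, and all arrays were on the same slide. Each row of the slide held 1 group, so row and group cannot be told apart. In whole callus, fewer cells of a type and less RNA per cell cannot be told apart either.

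Hox genes encode transcription factors that set position along the body axis and the limb, and adult connective tissue keeps much of the Hox pattern of the place it came from. The miRs of the clusters are transcribed in domains that follow those of neighbouring Hox genes, and Hox mRNAs are among their targets, with Hoxb8 the best known target of miR-196. A miR recognises its targets mainly through its seed, which is bases 2 to 8 from the 5′ end.

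The mature sequences of the 4 detected arms are shown because each family shares a seed while its members differ elsewhere. They were taken from RefSeq (GRCm38.p6), in which all 9 members were matched, and are written 5′ to 3′ with the seed in capitals.
mmu-miR-10a-5p: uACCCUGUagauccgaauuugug
mmu-miR-10b-5p: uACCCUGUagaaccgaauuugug
mmu-miR-196a-5p: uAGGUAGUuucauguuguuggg
mmu-miR-196b-5p: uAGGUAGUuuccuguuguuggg

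The miR-10 arms were 23 bases long and differed by 1 substitution, U12A from miR-10a to miR-10b. The miR-196 arms were 22 bases long and also differed by 1 substitution, A12C from miR-196a to miR-196b, with positions counted from the 5′ end. Among the 1679 mature murine miRs of that table, no other miR carried the seed of either family. The files used here hold no probe sequences, and how far a probe for one member also binds its relative was not tested.

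The genes lie on 4 chromosomes. Mir10a is in cluster B within the span of Hoxb3, between Hoxb5 and Hoxb4, and its 5p arm is at chr11:96317186-96317208 on the plus strand (GRCm38.p6). Mir10b is in cluster D within the spans of Hoxd3 and Hoxd4, and its 5p arm is at chr2:74726074-74726096 on the plus strand. MiR-196b comes from cluster A, where its gene lies between Hoxa9 and Hoxa10, with the 5p arm at chr6:52230129-52230150 on the minus strand. MiR-196a comes from a pair of genes. Mir196a-1 lies between Hoxb13 and Hoxb9 in cluster B, with the arm at chr11:96265187-96265208, and Mir196a-2 lies between Hoxc10 and Hoxc9 in cluster C, with the arm at chr15:102973365-102973386, both on the plus strand. The array therefore measured the sum of both for the 5p arm. The 3p arms, shown with their own seeds in capitals, would tell these genes apart.
mmu-miR-196a-1-3p: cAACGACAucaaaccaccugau
mmu-miR-196a-2-3p: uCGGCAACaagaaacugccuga

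Neither of these 3p arms was detected, so that the share of each miR-196a gene is not known. The other arms, mmu-miR-10a-3p, mmu-miR-10b-3p and mmu-miR-196b-3p, were not detected either. Each 3p arm had at most 2 of its 40 spots well above background on any array, and its merged signal was 0.1 throughout, the value that the software gives to an undetected miR. For the 4 arms named 5p, all 40 spots were well above background on every array, and none was saturated.

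The arrays differed in brightness. Between 324 and 391 murine miRs were detected per array, and the summed signal ran from 183589 (P16) to 360063 (P17). The median of the negative control spots was 57 to 61 in the Non-union group and 53 to 54 in the Union group, and its part in the results was not tested. The callus expressed markers of several tissues, given here as merged signals summed before normalization. Their summed signals in the Non-union and the Union group were 934 to 3521 and 484 to 996 for the 4 of 4 arms of cartilage (miR-140, miR-455), and 7931 to 10663 and 5021 to 9255 for the 4 of 4 arms of mesenchymal stroma (miR-199a, miR-214). They were 14855 to 62225 and 36915 to 95817 for skeletal muscle, with all 6 miRs of the list on the array and 4 detected everywhere. Endothelium (2 of 2 arms of miR-126) gave 1935 to 2703 and 2743 to 3472. Red blood cells (3 of 4 miRs, with miR-486-5p not analysed here) gave 2959.8 to 9469 and 3050.3 to 16676. Myeloid cells gave 3534 to 4985 and 5375 to 20398, from 3 of 4 arms, while miR-223-5p was undetected on all arrays. The part of tissue composition in the differences below was not tested.

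Of the 4 members, miR-10b-5p was the one whose groups did not overlap, with lower values in the Non-union group. Its merged signal, in linear units, was 198, 240.2, 152 and 128 in P13 to P16 and 367, 292, 193 and 252 in P17 to P20. On this scale P19 lay between the Non-union arrays. After log2 transformation and quantile normalization the values were 7.62, 7.75, 7.50 and 7.42 against 8.21, 8.01, 7.76 and 7.97. All 4 Non-union arrays were now below all 4 Union arrays, but the closest pair, P14 and P19, was separated by 0.017, while the signal error given by the software corresponded to 0.11 on the log2 scale.

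**Figure D1:**
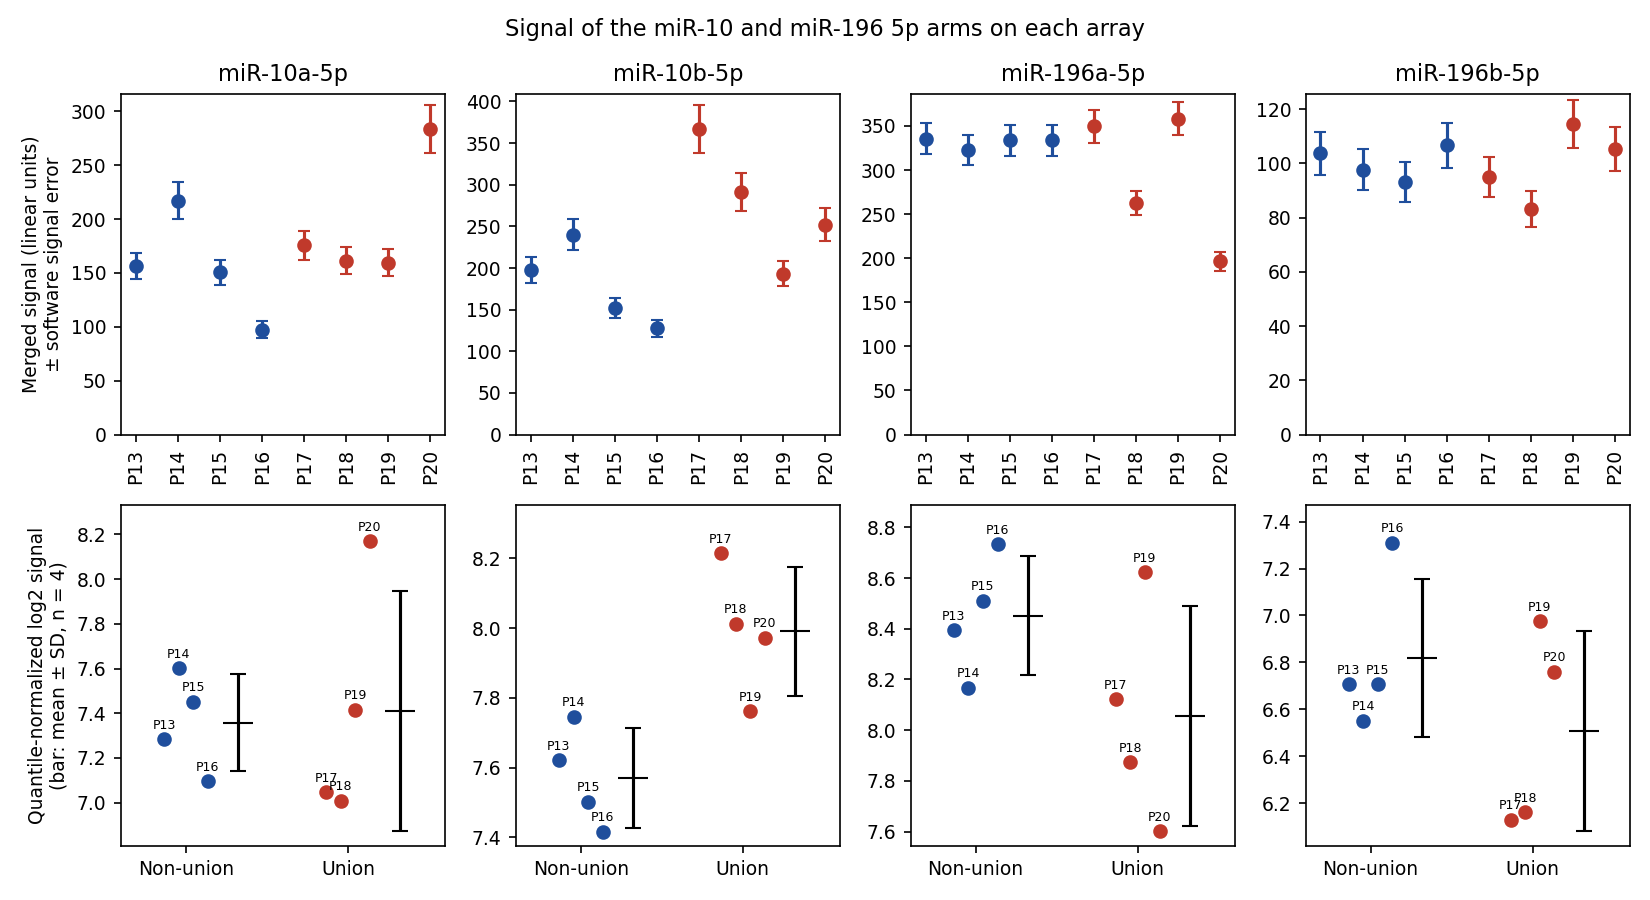
Merged signal of each 5p arm on each array with the signal error of the software (top, linear units from 0) and its quantile-normalized log2 signal by group with the mean ± SD of 4 arrays (bottom). Non-union is blue and Union is red. For miR-10b-5p all 4 Non-union arrays lie below the Union arrays after normalization, and for miR-10a-5p P20 stands highest at 8.17.

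The mean of miR-10b-5p was 7.57 ± 0.14 in the Non-union group and 7.99 ± 0.19 in the Union group (SD, n = 4 each). The difference, always given as Non-union minus Union, was -0.42 (SE 0.18, 95% confidence interval -0.83 to -0.0072), which is a level 1.34-fold lower in the Non-union group. The unadjusted limma p was 0.0469, and after Benjamini-Hochberg adjustment over the 310 miRs detected on all arrays it was 0.346. The exact permutation p was 0.0286 (two-sided), the smallest that 4 against 4 arrays allow. The limma p was thus under 0.05 before but not after correction for the number of miRs.

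These calls have to be read against all tested miRs. At an adjusted limma p under 0.05, 0.323% of the 310 miRs were called (1 miR), and none of the 4 members was among them. At an unadjusted limma p under 0.05, 13.9% were called, 4.19% with lower values in the Non-union group, and of the members only miR-10b-5p was, at rank 42 by p. In 3.87% of the miRs the groups did not overlap, and in 2.58% they did so with lower values in the Non-union group (8 miRs), again with miR-10b-5p as the single member.

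The call of miR-10b-5p at the unadjusted threshold depended on single arrays. Leaving out any 1 of the 6 arrays P13, P15, P16, P17, P18 or P20 gave unadjusted limma p-values of 0.0556 to 0.122. It stayed under 0.05 without P14 (unadjusted limma p of 0.0490) or without P19 (0.0260), the closest pair between the groups. The difference itself stayed between -0.49 and -0.36 when each array was left out in turn. P17, on which miR-10b-5p was highest, was also the array with the highest summed signal of all murine miRs (360063). Before normalization it had the highest sums of the muscle list (95817) and of the red blood cell list (16676). In mean normalized log2 signal the muscle list was highest on P14 (13.61, against 13.54 on P17) and the red blood cell list on P17 (9.19). Without P17 the difference of miR-10b-5p was -0.36. Limma with array weights gave an adjusted p of 0.0093 and a difference of -0.57, and with these weights 57.1% of the 310 miRs (177) were called at an adjusted p under 0.05. Gene-by-gene array weights, added after seeing the data, gave -0.52 with an adjusted limma p of 0.0330, and 28.7% (89 miRs) were called. Over all 22 alternatives the adjusted p ran from 0.0093 to 0.619. In the first of these weighted fits the weights were 0.24 for P19 and 0.21 for P20, against 0.78 to 3.31 for the other arrays, and their estimation stopped before its tolerance was reached.

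MiR-10a-5p, which shares the seed of miR-10b-5p, showed no difference between the group means that exceeded its spread. Its merged signal was 156, 217, 150.5 and 97.5 in P13 to P16 and 176, 161, 159 and 284 in P17 to P20. The normalized values were 7.28, 7.60, 7.45 and 7.10 in the Non-union group and 7.05, 7.01, 7.42 and 8.17 in the Union group. P20 was the highest array and P17 and P18 were the lowest ones, so that the Union arrays enclosed those of the Non-union group.

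The group means of miR-10a-5p were 7.36 ± 0.22 and 7.41 ± 0.54 (SD, n = 4 each). The difference was -0.05 (SE 0.28, 95% confidence interval -0.69 to 0.59, adjusted limma p = 0.904, exact permutation p = 0.914). This interval includes a change as large as that of miR-10b-5p, so the data do not show that miR-10a-5p was equal in both groups. The direction depended on single arrays, as the difference was 0.19 without P20 and 0.04 without P16, and -0.18 and -0.19 without P17 and P18. Without normalization it was -0.34. P20 also had the highest summed signal of the myeloid list, 20398 against at most 6376 on the other arrays. It was highest for the endothelium list too, at 3472 against at most 3082. Whether either list bears on miR-10a-5p was not tested.

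MiR-196a-5p had higher means in the Non-union group, within the spread of the replicates. Its merged signal was 336, 322, 334 and 334 in P13 to P16, a 1.04-fold range, and 350, 262, 358 and 196.3 in P17 to P20, a 1.83-fold range. The Non-union arrays were thus nearly equal before normalization, with P17 and P19 above them and P18 and P20 below. After normalization the values were 8.39, 8.17, 8.51 and 8.73 in the Non-union group and 8.12, 7.87, 8.62 and 7.60 in the Union group. P17, P18 and P20 then lay below every Non-union array, and P19 lay within the Non-union range.

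The group means of miR-196a-5p were 8.45 ± 0.24 and 8.05 ± 0.43 (SD, n = 4 each), a 1.32-fold higher level in the Non-union group. The difference was 0.40 (SE 0.25, 95% confidence interval -0.18 to 0.97, adjusted limma p = 0.386, exact permutation p = 0.171). Without P19 it was 0.59 with an unadjusted limma p of 0.0275 and an adjusted p of 0.0956, and without P20 it was 0.25. P19 had a stroma sum of 9255, within the Non-union range, whereas the other Union arrays had 5021 to 5949.7. Its cartilage sum of 996 was within the Non-union range too, whereas the other Union arrays had 484 to 749. Whether either list bears on miR-196a-5p was not tested.

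MiR-196b-5p had the narrowest range of signals among the members (1.38-fold), at 104, 97.7, 93.3 and 107 in P13 to P16 and 95.1, 83.1, 115 and 105 in P17 to P20. On this linear scale the Non-union arrays lay within the range of the Union arrays. The normalized values were 6.71, 6.55, 6.71 and 7.31 against 6.13, 6.16, 6.97 and 6.76. P17 and P18 were the lowest arrays, while P19 and P20 lay within the Non-union range.

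The group means of miR-196b-5p were 6.82 ± 0.34 and 6.51 ± 0.43 (SD, n = 4 each), a 1.24-fold higher level in the Non-union group. The difference was 0.31 (SE 0.27, 95% confidence interval -0.30 to 0.92, adjusted limma p = 0.448, exact permutation p = 0.286). Single arrays moved it, to 0.14 without P16, 0.19 without P17, 0.21 without P18 and 0.48 without P19. Without normalization it was 0.02. With array weights it was 0.54 with an adjusted limma p of 0.0295, and with gene-by-gene array weights, an alternative added after seeing the data, it was 0.47 with an adjusted limma p of 0.0971. Over all 22 alternatives the adjusted p ran from 0.0295 to 0.946.

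**Figure D2:**
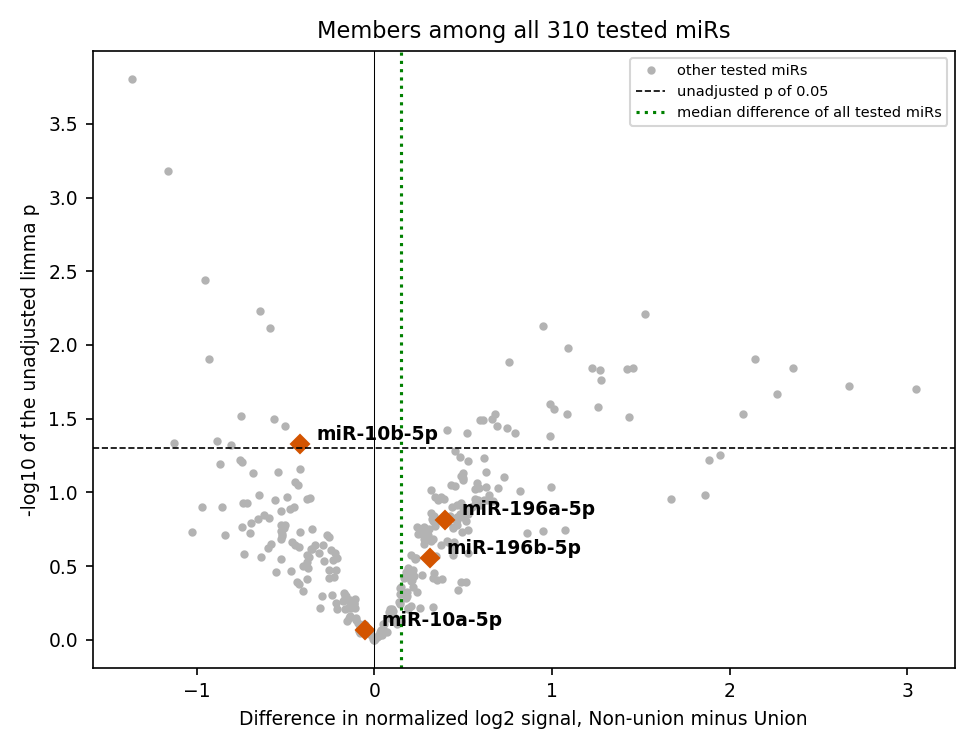
Difference in normalized log2 signal, Non-union minus Union, of the 310 tested miRs (x axis) against -log10 of the unadjusted limma p (y axis). Members are orange, the dashed line is a p of 0.05 and the dotted line is the median difference of all tested miRs, 0.15. MiR-10b-5p is the single member above the dashed line.

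The scaling shifted the differences of the tested miRs, though not all by the same amount, so that the members were also set against their median. This median difference was 0.15 after quantile normalization and -0.10 without normalization, and 126 of the 310 tested miRs (40.6%) had lower values in the Non-union group. The median over the 4 members was 0.13, with 2 lower and 2 higher. Relative to the median of the tested miRs, miR-10b-5p was at -0.57 after quantile normalization and at -0.52 without it. MiR-10a-5p was at -0.20 and -0.24, miR-196a-5p at 0.25 and 0.33, and miR-196b-5p at 0.16 and 0.12. Over 8 ways of making and scaling the values these relative differences ran from -0.57 to -0.35 for miR-10b-5p, from -0.24 to -0.06 for miR-10a-5p, from 0.25 to 0.36 for miR-196a-5p and from 0.12 to 0.27 for miR-196b-5p. Each member thus kept its side of the median under these 8 settings, but the settings are not all independent. No scaling and both percentile scalings give the same relative differences by construction, since they shift all miRs of an array equally. The values deposited by the authors were quantile-normalized as in the reported fit. Without normalization the unadjusted limma p of miR-10b-5p was 0.0474, and its groups overlapped.

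**Figure D3:**
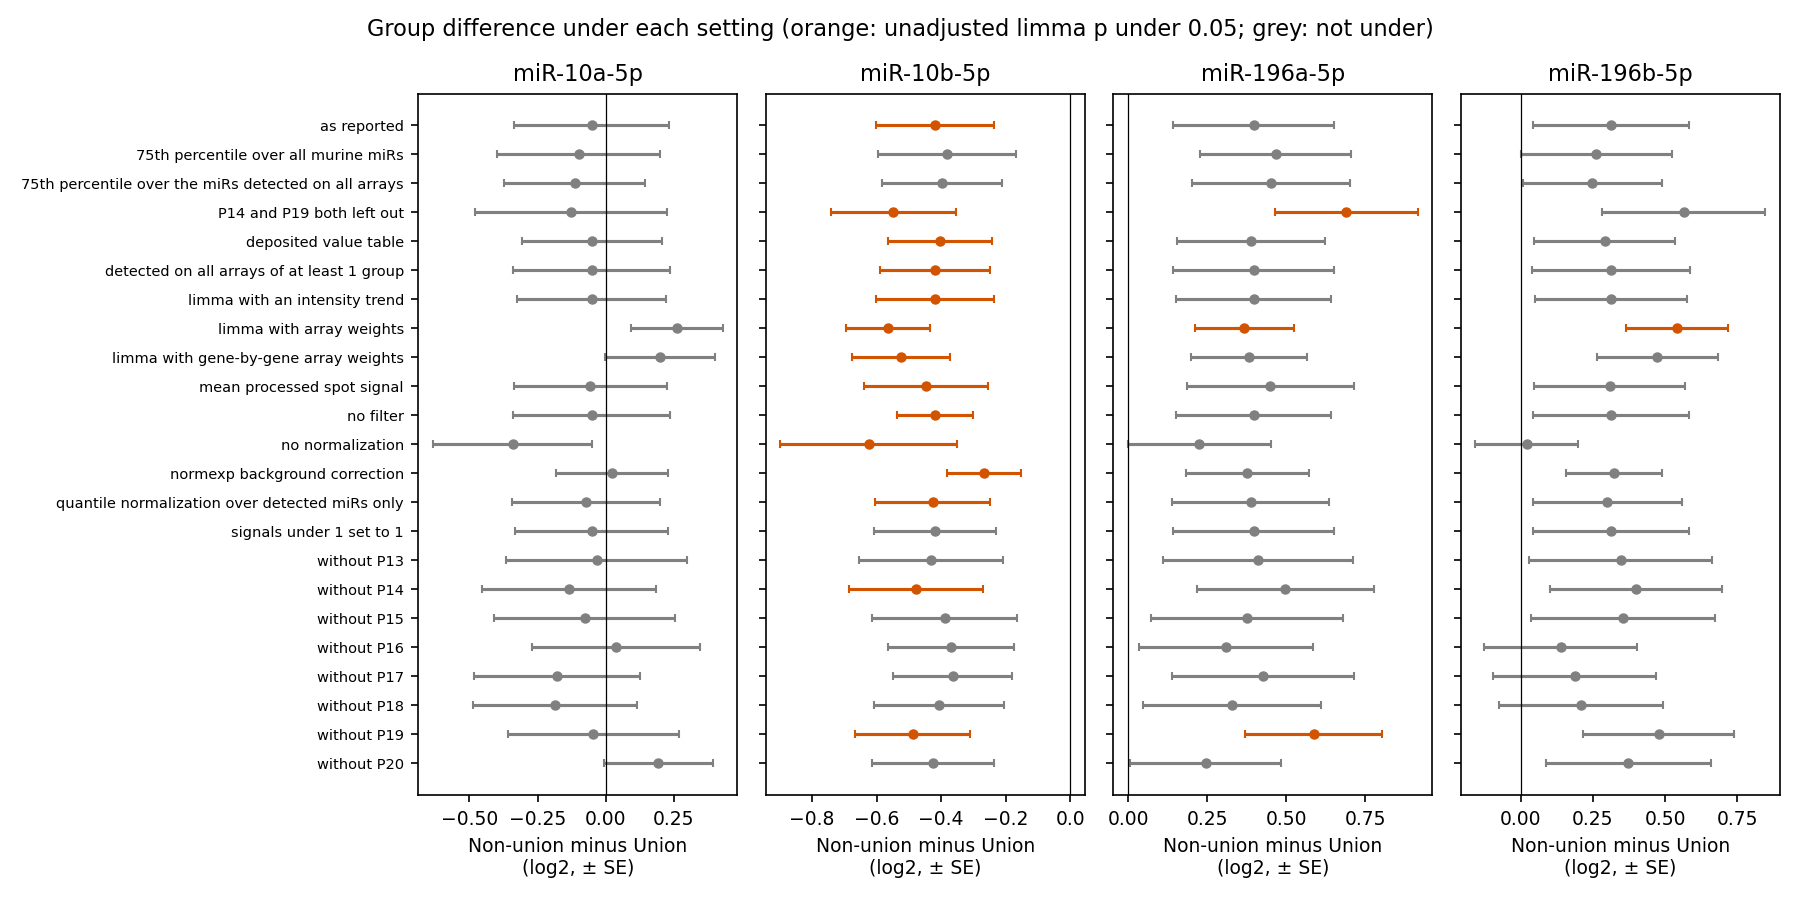
Group difference of each member (x axis, log2 ± SE) under each setting (rows), with orange where the unadjusted limma p was under 0.05. MiR-10b-5p lies below 0 in every row, from -0.62 to -0.27, and miR-10a-5p lies on both sides of 0.

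Each miR was measured by several probes, with 2 for miR-10a-5p, miR-10b-5p and miR-196b-5p and 4 for miR-196a-5p. The coefficient of variation among spots of 1 probe on 1 array was 0.989% to 11.8%. The probes of miR-10b-5p gave normalized differences of -0.41 (exact permutation p = 0.0286) and -0.43 (p = 0.0571), and in the second the groups overlapped. Those of miR-10a-5p gave -0.03 and -0.07, those of miR-196a-5p 0.38 to 0.41, and those of miR-196b-5p 0.29 and 0.32. Probes of 1 miR share the RNA of 1 array and are not replicates, and their differences within a miR varied by less than its SE.

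Whether members changed unequally was tested on the difference between members within each array, for 6 pairs. The largest contrast was between miR-10b-5p and miR-196a-5p. The normalized log2 signal of miR-10b-5p minus that of miR-196a-5p was -0.77, -0.42, -1.01 and -1.32 in P13 to P16 and 0.09, 0.14, -0.86 and 0.37 in P17 to P20. P17, P18 and P20 lay above every Non-union array and P19 lay within the Non-union range. The contrast differed between the groups by -0.82, a 1.76-fold unequal change, with an exact permutation p of 0.0857 (0.429 after adjustment over the 6 pairs).

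The contrast of miR-10b-5p with miR-196b-5p differed by -0.73 (exact permutation p = 0.143, adjusted 0.429). Within the seed families, the contrast of miR-10a-5p with miR-10b-5p differed by 0.37 (exact permutation p = 0.314, adjusted 0.549), and that of miR-196a-5p with miR-196b-5p by 0.08 (exact permutation p = 0.857, adjusted 0.857). The pairs of miR-10a-5p with miR-196a-5p and with miR-196b-5p differed by -0.45 and -0.36 (exact permutation p = 0.457 and 0.371, both 0.549 after adjustment). The first of these was -0.05 without P20 and -0.27 without P16, and the second was -0.10 without P16 and -0.18 without P20. No pair thus exceeded the replicate spread. Without P20 the contrast of miR-10a-5p with miR-10b-5p was 0.62, with an unadjusted exact permutation p of 0.0286, the smallest that 4 against 3 arrays allow, and that of miR-196a-5p with miR-196b-5p was -0.13. Without P17 or P18 the contrast of miR-10a-5p with miR-10b-5p was 0.19 or 0.22.

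**Figure D4:**
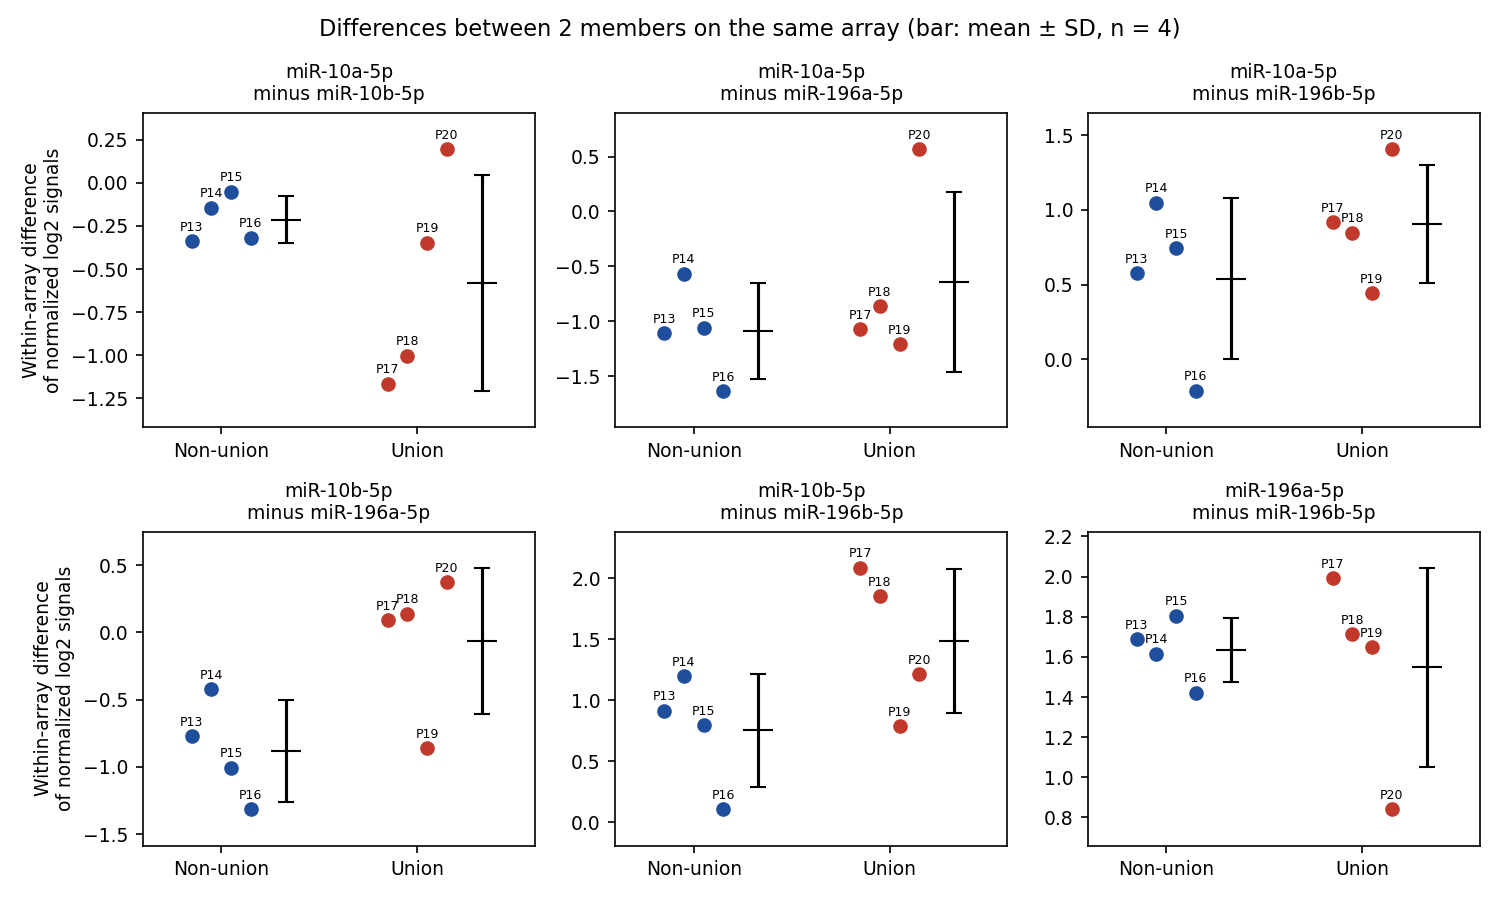
Difference between the normalized log2 signals of 2 members on the same array (y axis) by group, with the mean ± SD of 4 arrays. Only the shift between the groups can be read, since the level depends on the probes. For miR-10b-5p minus miR-196a-5p the group means are -0.88 and -0.06, with P19 at -0.86.

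Over the 8 arrays miR-10b-5p was negatively correlated with the miR-196 arms before adjustment. Negative r with miR-10b-5p was not particular to them, as miRs outside the Hox clusters, given further below, had it too. With miR-196a-5p, Pearson's r was -0.74 (exact permutation p = 0.0387, 0.116 after adjustment over 6 pairs) and Spearman's rho was -0.76 (exact permutation p = 0.0368, adjusted 0.221). Without P16 and P17, the arrays farthest from the median of miR-10b-5p, r was -0.81. With miR-196b-5p, r was -0.78 (exact permutation p = 0.0215, adjusted 0.116) and rho was -0.63 (exact permutation p = 0.0998, adjusted 0.233), and without P16 and P17 r was -0.44. Neither relation passed after adjustment, and without normalization r was -0.29 and -0.44. These values pool both groups and so also carry the opposite group differences of the members. For deviations from the group means, given as a description without a test, r was -0.61 with miR-196a-5p and -0.85 with miR-196b-5p.

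The arms sharing a seed did not run closely together. For miR-10a-5p and miR-10b-5p r was 0.02 (exact permutation p = 0.971, rho -0.26, p = 0.536), with 0.62 before normalization. For miR-196a-5p and miR-196b-5p r was 0.61 (exact permutation p = 0.105, rho 0.61, p = 0.116), with 0.16 before normalization, and 0.91 without P16 and P20. MiR-10a-5p gave r of -0.45 with miR-196a-5p (exact permutation p = 0.266, rho -0.07, p = 0.882) and 0.23 with miR-196b-5p (exact permutation p = 0.580, rho 0.36, p = 0.381).

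For each member, the 3 tested miRs outside the families with the highest r over the 8 arrays are named as a description, since they were picked for this value and all values of an array share its scaling. MiR-10b-5p was most like miR-30c-5p (r 0.92), miR-29c-3p (0.92) and miR-30b-5p (0.91), with r of 0.95 to 0.97 without normalization. All of these were highest on P17. MiR-10a-5p was most like miR-338-3p (0.91), miR-192-5p (0.89) and miR-3473 (0.88), all of which were highest on P20, and r was 0.92 to 0.95 without normalization.

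MiR-196a-5p had the closest companions. These were miR-382-3p, miR-382-5p and miR-411-5p (each 0.98, and 0.93 to 0.95 without normalization), with 42 tested miRs over 0.9, against 18 for miR-196b-5p, 5 for miR-10b-5p and 1 for miR-10a-5p. The genes of all 3 lie in the Dlk1-Dio3 region, and like miR-196a-5p these miRs were highest on P16, high on P19 and lowest on P20. For miR-382-3p the difference was 0.99 (SE 0.42, limma, adjusted p = 0.327), for miR-382-5p 0.58 (SE 0.30, adjusted p = 0.378) and for miR-411-5p 0.54 (SE 0.32, adjusted p = 0.378). MiR-196b-5p was most like let-7a-5p (0.95), let-7a-1-3p (0.94) and miR-324-3p (0.94), but r was 0.23, 0.24 and 0.01 without normalization, so that this likeness appeared only on the normalized scale.

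**Figure D5:**
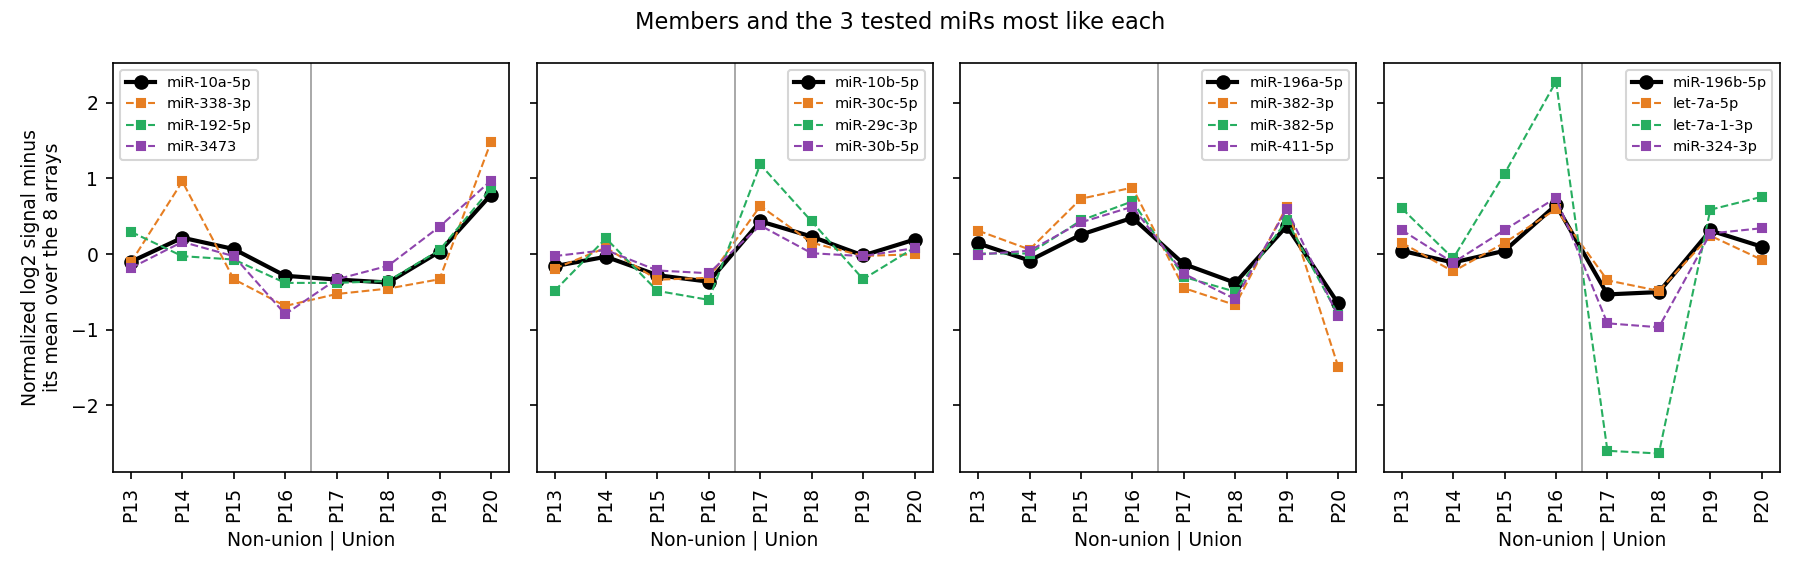
Normalized log2 signal minus its mean over the 8 arrays (y axis) on each array (x axis, Non-union left of the line, Union right) for each member (black) and the 3 tested miRs most like it (coloured). MiR-196a-5p and its companions are high on P19 and lowest on P20, and miR-10b-5p and its companions are highest on P17.

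The remaining miR gene of the Hox clusters in the RefSeq table was Mir615, which lies in cluster C within Hoxc5. MiR-615-3p was detected on 7 arrays, with merged signals of 3.51, 2.79, 4.38 and 3.35 in P13 to P16 and 2.65, 3.13 and 2.45 in P17, P19 and P20, and it was undetected on P18. These signals lie close to 2.16, the lowest of any detected murine miR, so no order was read from them. MiR-615-5p was detected on no array.

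MiR-99a, miR-99b and miR-100 are distant relatives of miR-10 that lie outside the Hox clusters. They are shown because their 5p arms, written here with the stretch shared with a miR-10 arm in capitals, carry another seed. The stretch is shared with miR-10a-5p for the first and the last and with miR-10b-5p for the second, and it begins at base 7 of miR-10 and base 6 of the relative.
mmu-miR-99a-5p: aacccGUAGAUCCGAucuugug
mmu-miR-99b-5p: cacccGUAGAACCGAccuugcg
mmu-miR-100-5p: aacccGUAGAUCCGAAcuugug

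Of the 6 arms of these relatives, 4 were detected on all arrays and none passed at an adjusted limma p under 0.05, while miR-99b-3p alone was under 0.05 without adjustment (unadjusted limma p of 0.0214). All 4 had higher normalized means in the Non-union group. MiR-99b-5p had normalized values of 7.15, 6.90, 7.34 and 7.39 in the Non-union group and 6.39, 6.48, 7.03 and 6.94 in the Union group. P19 and P20 lay within the Non-union range and P17 and P18 below it. The difference was 0.48 (SE 0.22, adjusted limma p = 0.378, exact permutation p = 0.0857). It was 0.32 for miR-99a-5p (SE 0.24, limma, adjusted p = 0.407) and 0.36 for miR-100-5p (SE 0.20, adjusted p = 0.378). MiR-99b-3p gave 2.27 (SE 0.82, limma, adjusted p = 0.313), at merged signals of 2.31 to 3.95 close to the lowest detected one. Its merged signal was 3.21 on both P14 and P17, yet the normalized values there were 1.36 and -2.11. Normalization thus stretched small differences at this low level, and no size of change was read from this arm. MiR-99a-3p and miR-100-3p were detected on no array. Over the 8 arrays, r with miR-10b-5p on the normalized scale was -0.95 for miR-99b-5p and -0.85 for miR-99b-3p. It was -0.80 for miR-100-5p and -0.60 for miR-99a-5p. These r values are given as a description without a test.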

How the data were processed

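Callus RNA of 8 CD-1 mice was measured on Agilent murine miR arrays with 1 dye (Cy3), 1 array per mouse. The authors read the scans with Agilent Feature Extraction 10.10.1.1. They deposited linear intensity values per spot and per miR after background subtraction, with detection calls. The deposited value table holds log2 values after quantile normalization by the authors and served as an alternative. The array design was built on mm9, and sequence positions are those of GRCm38.p6 in RefSeq.

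Log2 was taken of the merged signals of 1079 murine miRs before quantile normalization, and 310 miRs, detected on each of the 8 arrays, were fitted with lmFit and eBayes of limma 3.58.1 in R 4.3.3. Two-sided p-values were adjusted over these 310 miRs by the Benjamini-Hochberg procedure, with a threshold of 0.05. Group differences and pair contrasts were tested by exact permutation of all 70 arrangements of the arrays. Where arrays were left out, all arrangements of the arrays kept were used for the contrasts. Correlations were tested by exact permutation over all pairings of the values of the 8 arrays. Files were read in Python 3.11.15 (pandas 2.3.3, numpy 2.4.6, scipy 1.17.1). Figures were drawn with matplotlib 3.10.9. The fit was tested on simulated data.

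Groups came from the sample labels, which give no pairing of mice and no extraction batch. Each sample is 1 mouse. The miRs named are the members, the other Hox cluster miRs, miR-99a, miR-99b and miR-100, the 3 miRs most like each member, and the tissue lists. The members and the lists were chosen with earlier results of these data known. Alternatives were other scalings (none, the 75th percentile, quantiles over detected miRs), averaged spots, normexp with an offset of 50, other filters, a floor of 1, an intensity trend, array weights, and leaving out arrays. The files used here hold median and no mean spot signals, so normexp was run on medians. For averaged spots, 4429 averages at or below 0 were set to 0.1. The number of arrays limits the precision.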

Additional observations from a re-analysis of the deposited data

How the results depend on the processing

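Of 190 values of single members and pairs under the alternatives, 170 kept their direction and their side of an unadjusted p of 0.05. These alternatives are not all independent. The intensity trend, both kinds of array weights and the other filters reused the normalized values of the reported fit, so overlap between the groups could not change there. With the trend and the filters the difference could not change either. No scaling and both scalings to the 75th percentile give the same pair contrasts by construction. MiR-10b-5p kept its direction in all 22 alternatives, its p was under 0.05 in 13, and its groups did not overlap in 17. Its difference was -0.38 and -0.40 (unadjusted limma p of 0.102 and 0.0597) with scaling to the 75th percentile of all murine miRs and of those detected on all arrays, and -0.42 (p of 0.0526) with signals under 1 set to 1. With each array left out in turn it ran from -0.49 to -0.36. MiR-10a-5p was lowest, at -0.34, without normalization, turned to 0.023 with normexp, to 0.26 with array weights and to 0.20 with gene-by-gene array weights, which were added after seeing the data because the estimation of the former did not reach its tolerance, and ran from -0.19 to 0.19 with single arrays left out. MiR-196a-5p passed the unadjusted threshold with array weights (0.37) and with P14 and P19 both left out (0.69, limma p of 0.0190), and ran from 0.25 (without P20) to 0.59 (without P19) with single arrays left out. For this member P14 was the lowest Non-union array (8.17) and P19 the highest Union array (8.62), so leaving out both favours a larger difference. MiR-196b-5p passed with array weights (0.54) and ran from 0.14 to 0.48 with single arrays left out. The contrast of miR-10a-5p with miR-10b-5p ran from 0.19 to 0.62 that of miR-196a-5p with miR-196b-5p from -0.13 to 0.24, that of miR-10a-5p with miR-196a-5p from -0.63 to -0.05 and that of miR-10a-5p with miR-196b-5p from -0.53 to -0.10 with single arrays left out. The cause was not tested.

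Counts over all tested miRs moved more. The 12 of 310 miRs without overlap became 19 with scaling to the 75th percentile of all murine miRs. They became 20 of 343 when detection in 1 group sufficed and 20 of 1079, a smaller share, with no filter. They were 128 without P14 and P19 and 12 to 93 with 1 array left out. The single miR with an adjusted limma p under 0.05 became 0 with that scaling, without normalization or with normexp. It became 2 with quantiles over detected miRs, 2 of 1079 with no filter and 3 of 343 with detection in 1 group. It was 21 without P14 and P19, 177 with array weights, 89 with gene-by-gene ones and 0 to 12 with 1 array left out. The 43 miRs with an unadjusted p under 0.05 became 122, 198 and 159 with P14 and P19 left out, array weights and gene-by-gene array weights, and 18 to 115 with single arrays left out. The most miRs passed without P19, at 12 and 115. With fewer arrays groups separate more easily by chance, and 3 per group allow no exact permutation p below 0.1. No paired analysis was possible, as the labels give no pairing.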
